A study of Mus musculus with 16 samples.

Results

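Prostaglandins are short-lived lipid signals, and 9 mouse genes for making, sensing and inactivating them were followed through the activation of hepatic stellate cells, the retinoid-storing liver cells that turn into matrix-producing myofibroblasts. The genes were Ptgs1, Ptgs2, Ptges and Ptgis for synthesis, Ptger2, Ptger3, Ptger4 and Ptgfr for reception, and Hpgd for inactivation. A probe set, the group of array probes that reports 1 transcript, was assigned to a gene when the platform annotation gave it that symbol alone, and each gene was represented by the probe set with the highest mean over all 16 arrays. In this way 8 of the 9 genes had a value, from 18 probe sets, among 18193 genes in all. No probe set carried the symbol Ptgs1 in the annotation used here, so that gene was not analysed here.

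The arrays measured RNA from stellate cells of male Balb/c mice aged 8 to 10 weeks. The cells were purified by density centrifugation, and cells bearing the macrophage surface protein that Adgre1 encodes were removed with magnetic beads. Quiescent cells (5 arrays) came from normal mice and were lysed after 24 h on the dish. Culture cells (3 arrays) spent 5 days in medium with 10% fetal bovine serum. Coculture cells (2 arrays, replicates 2 and 3) spent the same 5 days in the same serum with hepatic macrophages, the Kupffer cells, on the other side of a transwell insert, so that soluble factors but not contact could pass between them. The design text of the series lists 3 coculture samples, and 1 of them is not used here. Bile duct ligation cells (3 arrays) came from mice whose common bile duct had been tied for 15 days, a model of biliary fibrosis. CCl4 cells (3 arrays) came from mice given 4 intraperitoneal injections of carbon tetrachloride at 0.5 µl per g body weight, a model of toxic fibrosis. Both kinds of injury-derived cells were lysed after 24 h on the dish, as the quiescent cells were, so the culture and coculture groups also differ from the other groups in time on the dish.

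Cyclooxygenase takes arachidonic acid, released from membranes by phospholipase A2, and turns it into the unstable intermediate PGH2. Ptgs1 encodes the steadily expressed form of the enzyme and Ptgs2 the form induced by cytokines, growth factors and injury. Terminal synthases then set the product, with Ptges making PGE2 and Ptgis making prostacyclin. PGE2 acts on receptors that differ in signalling: EP2 and EP4, from Ptger2 and Ptger4, raise cAMP, and EP3, from Ptger3, mostly lowers it. In stellate cells agents that raise cAMP are known to restrain proliferation and contraction.

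Values are log2 expression on the scale the authors deposited, where 1 unit is a 2-fold difference. The median of all probe sets was between 2.00 and 2.06 on every array, and values near or below it are called background here. Between 6803 and 7037 genes per array reached 5, and correlations over the tested genes were 0.929 to 0.983 within groups and 0.773 to 0.969 between groups. A gene was tested if 2 or more arrays reached 5, which gave 7823 genes and 5 of the members: Ptgs2, Ptgis, Ptger2, Ptger3 and Ptger4. Ptges, Ptgfr and Hpgd fell below that limit. A gene was called when its adjusted p from limma, a linear model fitted across all genes, was under 0.05. Separate animals are not stated for the preparations in the labels, so the p-values reflect only how these samples spread around their means, and the number of arrays limits the precision. Of 8 stellate markers, 7 were tested, and desmin (Des) averaged between 7.83 and 8.86 in the 5 groups. Other stellate markers moved more, with Reln, a secreted matrix protein, at 12.03 in quiescent cells and 8.78 in coculture, and Lrat, the enzyme that stores retinoid as ester, at 5.61 in quiescent cells, 9.75 in culture and 3.81 after CCl4. The log2 of the summed stellate markers was 13.48 to 14.06 in quiescent cells, 13.80 to 14.46 in culture, 13.12 to 13.60 in coculture, 13.16 to 13.44 after ligation and 12.55 to 13.18 after CCl4. Ngfr, the marker below the limit, averaged 2.63 to 3.22. Adgre1, whose protein marked the removed cells, averaged 1.54 to 2.23.

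Quiescent replicate 4 stood apart from the other quiescent arrays in 2 of 3 Nr4a genes, immediate early genes that respond rapidly to stimulation. Its Nr4a1 level was 11.75, against 4.34 to 7.87 on the others, and its Nr4a2 level was 8.00, against 2.52 to 3.40. In Nr4a3 it stood at 7.97, but quiescent replicate 2 was as high at 7.85, with the other quiescent arrays at 2.17 to 2.96. Ptgs2 is itself such a gene, so each Ptgs2 difference from quiescent cells is given with and without that array.

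Across the 5 groups, 4 of the 5 tested members were called in limma's F test (Ptgs2, Ptgis, Ptger3 and Ptger4), and 63.0% of all tested genes were. Ptger2 was not called (adjusted p 0.188). The enzyme of the common first step was high after injury and in coculture, and the EP4 receptor was high after injury. The prostacyclin synthase was low after days in culture. The EP3 receptor was higher there than in quiescent cells, with no called difference from either injury group.

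**Figure D1:**
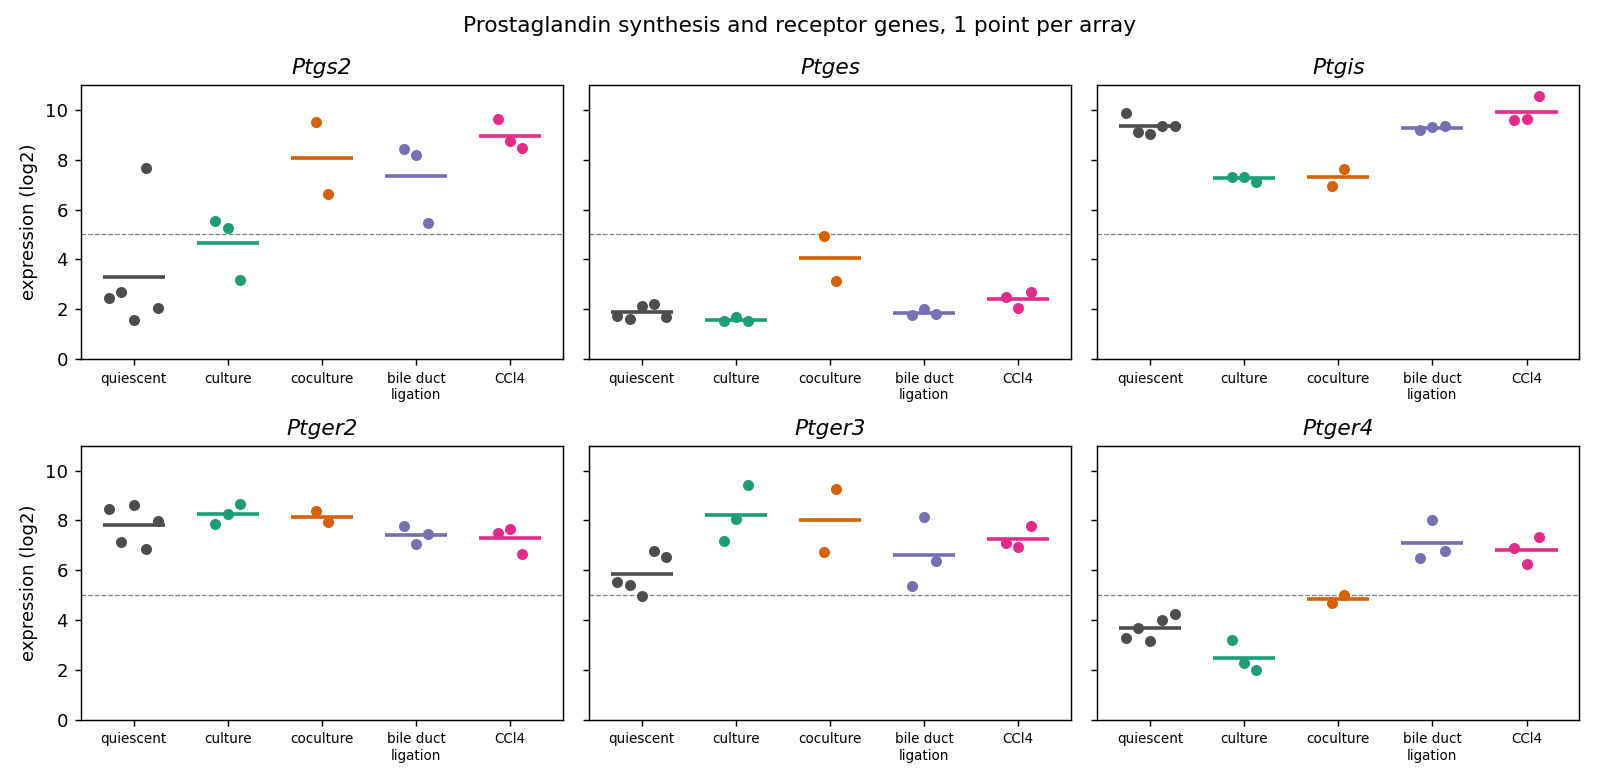
Log2 expression of 6 members on each of the 16 arrays, 1 point per array, with a horizontal bar at each group mean and a dashed line at log2 5, the level used to choose tested genes. Ptger4 separates the 6 injury arrays from all others, Ptgis separates the 5 culture and coculture arrays from all others, and in Ptgs2 a single quiescent point lies at 7.67.

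Ptgs2, the inducible cyclooxygenase, rose in coculture and after both injuries. In quiescent cells it stood at 2.45, 2.71, 1.58, 7.67 and 2.03 in replicates 1 to 5, so 4 arrays were near background and replicate 4 was not. Culture cells gave 5.55, 5.25 and 3.18, and coculture cells gave 9.53 and 6.62. The coculture arrays both lay above the 3 culture arrays. Bile duct ligation cells gave 8.42, 8.18 and 5.45, and CCl4 cells gave 9.63, 8.76 and 8.47. Every CCl4 array lay above every quiescent array, whereas quiescent replicate 4 lay above the culture range and within the coculture and ligation ranges.

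The mean Ptgs2 level of CCl4 cells exceeded that of quiescent cells by 5.67 ± 1.16 (SE; adjusted p 0.00305), a 50.8-fold difference from a background-level start that makes the fold depend on the background estimate. Coculture cells exceeded quiescent cells by 4.79 ± 1.33 (adjusted p 0.0108) and bile duct ligation cells by 4.06 ± 1.16 (adjusted p 0.0251). Culture alone differed by 1.37 ± 1.16, with a 95% interval from -1.11 to 3.85 (adjusted p 0.362). Without quiescent replicate 4 the differences were 6.76 after CCl4 (adjusted p 3.54e-05), 5.88 in coculture (0.000166), 5.16 after ligation (0.000326) and 2.47 in culture (0.0206), so that the culture difference was then called too. The coculture call rested on 1 array, since without coculture replicate 2 the difference was 3.33 (adjusted p 0.165). The ligation call ended when quiescent replicate 3 (3.64, adjusted p 0.0552), quiescent replicate 5 (3.75, 0.0559), ligation replicate 1 (3.53, 0.122) or ligation replicate 2 (3.65, 0.104) was left out.

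Between the activated groups, Ptgs2 was lower in culture than in CCl4 cells by -4.30 ± 1.30 (adjusted p 0.0151), with no overlap. This call was lost without culture replicate 3 (-3.56, adjusted p 0.0671) or CCl4 replicate 1 (-3.96, 0.053). Coculture stood 3.42 ± 1.46 above culture, which was not called (adjusted p 0.13) although the arrays did not overlap. Culture stood at -2.69 ± 1.30 relative to ligation (adjusted p 0.103). Without quiescent replicate 4, which enters only through the shared estimate of spread, the last 2 differences had adjusted p of 0.0189 and 0.0147. The order of means was CCl4 (8.96), coculture (8.08), bile duct ligation (7.35), culture (4.66) and quiescent (3.29), and no neighbours in it differed by a called amount. The second Ptgs2 probe set gave 1.56 to 4.02 in quiescent cells, 8.06 and 4.82 in coculture and 5.91 to 8.09 after CCl4. In bile duct ligation cells it gave 4.53, 5.71 and 2.84 and overlapped the quiescent range.

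The bases before the Ptgs2 start are shown because this gene had the widest range of group means among the tested members. They come from RefSeq on GRCm38.p6, plus strand, chr1:150099781-150100030, with capitals marking motif matches.
Ptgs2 promoter: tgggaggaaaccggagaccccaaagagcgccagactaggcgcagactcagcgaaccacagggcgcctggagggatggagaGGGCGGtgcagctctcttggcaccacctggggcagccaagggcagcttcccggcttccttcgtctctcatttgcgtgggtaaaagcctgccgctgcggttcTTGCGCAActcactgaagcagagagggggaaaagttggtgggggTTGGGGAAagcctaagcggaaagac
Searched on both strands, the 250 bases held 2 matches to the C/EBP motif TTNNGNAA, at -69 to -62 and -25 to -18 counted from the start, and 1 match to the Sp1 motif GGGCGG at -170 to -165. Of 32851 promoter windows of that length, 36.8% held the C/EBP motif and 32.7% the Sp1 motif. TATAAA, the CRE TGACGTCA, its core TGACG, the AP-1 motif TGANTCA, the E-box CACGTG and the NF-kB motif had no match in this window. A search of the 50 bases after the start, added after the sequence had been seen, found the CRE core at bases 14 to 18 (as CGTCA) overlapping an E-box at 17 to 22, on chr1:150100033-150100062, plus strand, with both in capitals.
Ptgs2 start: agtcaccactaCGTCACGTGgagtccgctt
Within the 50 bases after the start, 3.49% of promoters held the CRE core and 1.08% the E-box. A match describes letters only and is no evidence of binding.

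Ptges encodes the inducible PGE2 synthase, which works with Ptgs2, and it left background in the coculture arrays. Its values there were 4.95 and 3.15. Every other array lay between 1.53 and 2.68, with quiescent cells at 1.74, 1.60, 2.14, 2.22 and 1.70. Ptges did not reach 5 on any array and was not among the tested genes. In a fit without the filter, over 18193 genes, coculture exceeded quiescent by 2.17 ± 0.33 (adjusted p 0.000169) and culture by 2.46 ± 0.35 (0.000309). Leaving out each array in turn moved these from 1.27 to 3.07 and from 1.57 to 3.36, with adjusted p of at most 0.00373 and 0.00216, and the lowest values came without coculture replicate 2. Coculture also exceeded ligation by 2.19 (adjusted p 0.000672) and CCl4 by 1.64 (0.00678), and the call against CCl4 was lost without coculture replicate 2 (0.74, adjusted p 0.119). The other Ptges probe sets were lower, with coculture means of 1.83 and 1.94 against quiescent means of 1.39 and 1.12.

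Macrophage transcripts bear on the coculture values, since Kupffer cells shared the well, on the other side of the insert. Of 16 macrophage markers, 2 were tested. The log2 of the summed levels of all 16 was 8.30 and 8.31 in coculture, 6.53 to 6.67 in culture and 6.86 to 8.09 in quiescent cells. Cd68, a lysosomal macrophage protein, averaged 7.82 in coculture, 3.74 in culture and 7.02 in quiescent cells. Adgre1 averaged 1.55 in coculture and Clec4f, a Kupffer cell lectin, 1.67, both at background. Pf4, a platelet and macrophage chemokine, averaged 7.27 in coculture, 3.67 in culture and 5.68 in quiescent cells. Lyz2, the lysozyme of myeloid cells, averaged 5.49 in coculture, 4.94 in culture and 2.02 in quiescent cells. Of 6 bile duct cell markers 5 had a value and 1 was tested. Those 5 summed to 6.02 and 6.08 in coculture, 4.17 to 4.58 in culture and 3.97 to 4.45 in quiescent cells. Krt19, a keratin of bile duct cells, averaged 5.60 in coculture, 2.33 in culture and 1.58 in quiescent cells, while Krt7 and Epcam averaged 1.47 and 2.54 in coculture. The part of these transcripts in the Ptgs2 and Ptges differences was not tested, and in bulk samples fewer cells of a type and less RNA per cell cannot be told apart.

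Ptgis, the prostacyclin synthase, fell in both groups kept for 5 days and was not called as changed after either injury. It stood at 9.88, 9.11, 9.05, 9.34 and 9.36 in quiescent cells. Culture cells gave 7.31, 7.32 and 7.11, and coculture cells 6.95 and 7.64. All 5 of these arrays lay below every other array. Bile duct ligation cells gave 9.18, 9.30 and 9.37, and CCl4 cells gave 9.60, 9.65 and 10.54. The ligation arrays lay inside the quiescent range, and CCl4 replicate 3 lay above it.

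Culture differed from quiescent by -2.10 ± 0.23 (adjusted p 6.75e-06), a 4.29-fold lower level, and coculture by -2.05 ± 0.26 (3.57e-05). Coculture and culture differed by 0.05, with a 95% interval from -0.55 to 0.66. Bile duct ligation differed from quiescent by -0.07, with an interval from -0.55 to 0.42 (adjusted p 0.883). CCl4 stood 0.58 ± 0.23 above quiescent (adjusted p 0.0791) and 0.65 ± 0.25 above ligation (0.267), neither called. The first of these was called without quiescent replicate 1 (0.72, adjusted p 0.0323). Culture and coculture were below ligation by -2.04 and -1.98 and below CCl4 by -2.68 and -2.63, all called with adjusted p of at most 0.000254. In the order of means, CCl4 (9.93), quiescent (9.35), bile duct ligation (9.28), coculture (7.30) and culture (7.25), the step from ligation to coculture was the only called step between neighbours. Endothelial cells also make prostacyclin. None of 8 endothelial markers reached 5 on any array. Their summed log2 level was 4.40 to 4.59 in quiescent cells, 4.41 to 4.64 in culture and 4.60 to 4.65 in coculture. After ligation it was 4.81 to 6.22 and after CCl4 4.62 to 4.87. The part of endothelial cells in the Ptgis values was not tested.

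Ptger4, the EP4 receptor that raises cAMP, rose after both injuries. Quiescent cells gave 3.27, 3.68, 3.18, 4.00 and 4.23, culture cells 3.19, 2.29 and 2.01, and coculture cells 4.69 and 5.02. Bile duct ligation cells gave 6.48, 8.01 and 6.79, and CCl4 cells 6.89, 6.25 and 7.33. All 6 injury arrays lay above the 10 others, and both coculture arrays lay above the quiescent range.

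Bile duct ligation exceeded quiescent by 3.42 ± 0.38 (10.7-fold, adjusted p 2.02e-05) and CCl4 by 3.15 ± 0.38 (8.89-fold, 4.33e-05). The injuries differed from each other by -0.27 (CCl4 minus ligation, 95% interval -1.17 to 0.64, adjusted p 0.825). Leaving out any single array kept the injury differences between 2.97 and 3.73 for ligation and between 2.90 and 3.44 for CCl4, all called. Coculture was above culture by 2.35 ± 0.48 (adjusted p 0.00381). It was below ligation by -2.24 (0.00307) and below CCl4 by -1.97 (0.00894), the last lost without coculture replicate 2 (-1.81, adjusted p 0.0601).

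Against quiescent cells the smaller Ptger4 changes were fragile. Culture fell by 1.17 (adjusted p 0.022), which was lost without culture replicate 2 (-1.07, adjusted p 0.0797) or culture replicate 3 (-0.93, 0.106). Coculture stood 1.18 ± 0.44 above quiescent (adjusted p 0.0431), and leaving out any 1 of 7 arrays ended that call, with differences from 1.02 to 1.35 over all such fits. Those 7 were quiescent replicates 1, 2 and 3, culture replicate 2, both coculture arrays and CCl4 replicate 1. Means ran from bile duct ligation (7.09) through CCl4 (6.82), coculture (4.85) and quiescent (3.67) to culture (2.50), and each step but the first was called. The other Ptger4 probe set stayed below 3 on every array, with group means of 1.29 in quiescent, 1.70 in culture, 2.03 in coculture, 2.17 after ligation and 2.52 after CCl4.

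The promoter of Ptger4 is shown as that of the receptor with the widest range of group means. It comes from RefSeq on GRCm38.p6, minus strand, chr15:5244188-5244437, with capitals marking matches.
Ptger4 promoter: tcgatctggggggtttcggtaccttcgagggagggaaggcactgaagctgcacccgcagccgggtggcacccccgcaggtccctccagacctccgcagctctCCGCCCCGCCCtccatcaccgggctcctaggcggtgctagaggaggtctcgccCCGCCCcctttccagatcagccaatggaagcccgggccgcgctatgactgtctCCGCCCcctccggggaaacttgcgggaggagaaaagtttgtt
It held 4 matches to the Sp1 motif, all as its reverse complement CCGCCC, at -148 to -143, -143 to -138, -95 to -90 and -42 to -37, the first pair sharing a base. No match to the C/EBP, CRE, CRE core, AP-1, E-box, NF-kB or TATA motifs lay in this window, so the Ptgs2 and Ptger4 windows had only the Sp1 motif in common. RefSeq's table gave a promoter for 8 of the 9 genes.

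Transcripts of other liver cells moved with the injury groups. The summed log2 level of 6 hepatocyte markers was 4.08 to 5.15 in quiescent cells, 7.63 to 9.16 after ligation and 8.57 to 11.32 after CCl4. Albumin (Alb) averaged 2.75, 8.25 and 9.33 in these groups. The 6 portal fibroblast markers summed to 4.58 to 4.94 in quiescent cells, 6.83 to 7.38 in coculture, 8.22 to 8.64 after ligation and 7.60 to 8.73 after CCl4, with Fbln2, a matrix protein, leading. The 6 mesothelial markers summed to 4.04 to 4.40, 5.14 to 6.23 and 6.01 to 8.85 in quiescent, ligation and CCl4 cells. The macrophage markers summed to 7.08 to 8.98 after ligation and 7.52 to 8.52 after CCl4, and Lyz2 averaged 5.91 after ligation and 5.46 after CCl4. The 8 endothelial markers summed to 4.40 to 4.59 in quiescent cells, 4.81 to 6.22 after ligation and 4.62 to 4.87 after CCl4. Their part in the Ptgs2 and Ptger4 differences was not tested.

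Ptger3, the EP3 receptor that mostly lowers cAMP, rose in culture and coculture, with wide spread. Quiescent cells gave 5.53, 5.40, 4.98, 6.77 and 6.53, and culture cells gave 7.19, 8.07 and 9.42. Every culture array lay above every quiescent array. Coculture cells gave 6.74 and 9.28, bile duct ligation cells 5.36, 8.13 and 6.38, and CCl4 cells 7.08, 6.94 and 7.79. The lowest ligation array lay within the quiescent range and the highest within the culture range, and the CCl4 arrays lay just above the quiescent range.

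Culture exceeded quiescent by 2.38 ± 0.67 (5.22-fold, adjusted p 0.0099), and coculture by 2.17 ± 0.76 (0.0355). Without culture replicate 3 the culture difference was 1.79 (adjusted p 0.069). The coculture difference was 3.43 without coculture replicate 2, and its call was lost without coculture replicate 3 (0.90, adjusted p 0.504) or without quiescent replicate 1 (2.09, 0.059), 2 (2.05, 0.0603) or 3 (1.95, 0.0639). CCl4 stood 1.43 ± 0.67 above quiescent (adjusted p 0.142), and ligation 0.78 ± 0.67 above it (0.464), neither called. With only those groups fitted, CCl4 against quiescent was called (adjusted p 0.0353). Culture stood 1.60 above ligation (adjusted p 0.092) and 0.95 above CCl4 (0.321), neither called. Coculture stood 1.38 above ligation (0.227) and 0.73 above CCl4 (0.566), neither called. The culture difference from ligation was called without culture replicate 1 (2.12, adjusted p 0.0458) or ligation replicate 2 (2.35, 0.0211). Means ran from culture (8.22) through coculture (8.01), CCl4 (7.27) and bile duct ligation (6.62) to quiescent (5.84), with no called step between neighbours. Culture replicate 3, the highest Ptger3 array, also had the highest level of Lrat (11.36, against 8.73 and 9.17 in the other culture arrays), and of Kit (6.98, against 2.73 and 4.42). The part of these differences between arrays was not tested. The other Ptger3 probe set lay between 1.13 and 2.68 on all arrays.

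Ptger2, the EP2 receptor, was called in none of the comparisons. Its arrays stood at 8.45, 7.13, 8.63, 6.85 and 7.98 in quiescent cells, 7.84, 8.27 and 8.66 in culture and 8.38 and 7.93 in coculture. Bile duct ligation cells gave 7.79, 7.06 and 7.44, and CCl4 cells 7.51, 7.65 and 6.67. The quiescent arrays alone covered nearly the whole range. The widest difference was culture over CCl4, at 0.98 with a 95% interval from 0.08 to 1.87 (adjusted p 0.0723). It was called without quiescent replicate 4 (adjusted p 0.0392), with array weights (0.92, 0.0151) and with only those groups fitted (0.0281). Culture over ligation was called with array weights (0.78, adjusted p 0.0478) and with only those groups fitted (0.83, 0.032). Against quiescent cells the intervals were -0.35 to 1.25 in culture, -0.57 to 1.27 in coculture, -1.17 to 0.42 after ligation and -1.33 to 0.27 after CCl4.

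The receptor for PGF2α, Ptgfr, stayed at background in its 5 probe sets, whose group means lay between 0.89 and 1.63. Hpgd, the dehydrogenase that inactivates prostaglandins, averaged 1.07 in quiescent cells, 1.18 in culture, 1.11 in coculture, 1.63 after ligation and 2.17 after CCl4. Its highest array was CCl4 replicate 3 at 3.51, which also had the highest Alb (10.79) and Lrrn4 (8.26, a mesothelial marker). The unfiltered fit gave CCl4 minus quiescent as 1.10 ± 0.36 (adjusted p 0.064). The other Hpgd probe set was flat, with group means between 1.01 and 1.14.

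**Figure D2:**
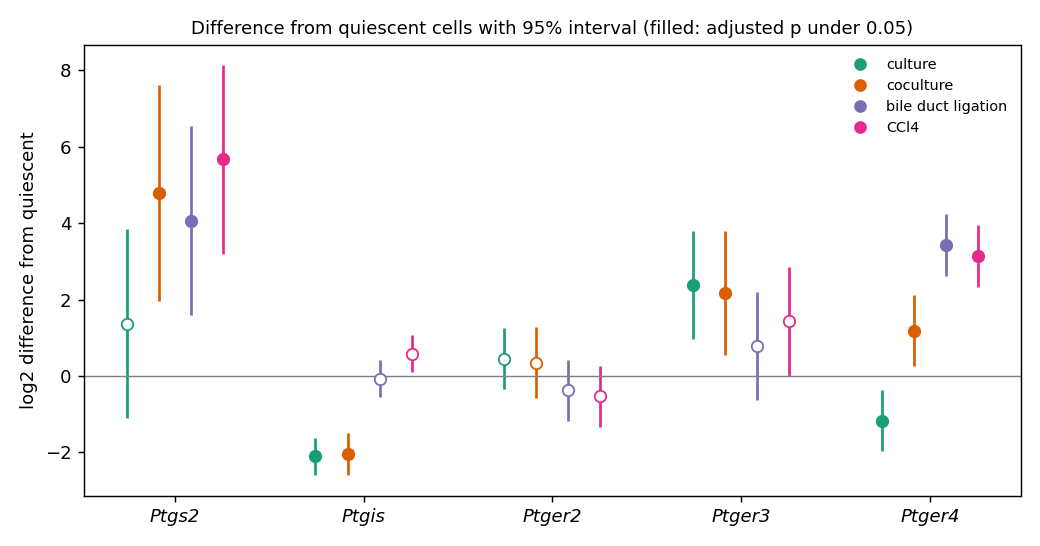
Log2 difference from quiescent cells of the 5 tested members in the 4 other groups, with 95% intervals from the limma fit. Filled points have an adjusted p under 0.05: Ptger4 has the narrowest intervals among the rises, at 3.42 and 3.15 after the injuries, and the Ptgs2 intervals are the widest.

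Counted by comparison, 3 of 5 tested members were called in culture against quiescent (1 higher, 2 lower), where 42.1% of all tested genes were (18.5% higher, 23.5% lower). In coculture against quiescent 4 were called (3 higher, 1 lower), beside 38.7% of all genes (17.8% higher, 20.9% lower). After bile duct ligation 2 were called, both higher, beside 16.9% (8.03% higher), and after CCl4 2, both higher, beside 22.0% (9.51% higher). The median member difference was 0.45 in culture, 1.18 in coculture, 0.78 after ligation and 1.43 after CCl4, where the median of all tested genes lay between -0.05 and -0.04. These 4 comparisons share the same 5 quiescent arrays. Ptger4 reached 5 on 7 arrays, all from the injury groups except coculture replicate 3, so it was tested only through groups where it was high. Counts and medians that include it, here and in the other comparisons, are therefore no independent support for a rise.

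Among the comparisons without quiescent cells, coculture against culture called 1 member, Ptger4, beside 15.4% of all genes (8.37% higher). Culture against bile duct ligation called 2, both lower in culture, beside 45.6% (23.6% lower), and culture against CCl4 called 3, all lower in culture, beside 43.0% (21.9% lower). Coculture against ligation and coculture against CCl4 each called 2, Ptgis and Ptger4, both lower in coculture, beside 29.6% (15.2% lower) and 21.9% (10.8% lower). In CCl4 against bile duct ligation limma called 0 members, beside 0.166% of all genes. An unadjusted p under 0.05 was found for 1 member (Ptgis) and for 1099 of the 7823 tested genes.

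Genes that release arachidonic acid, the substrate of cyclooxygenase, were followed as well. Of 15 genes in a list of phospholipases and arachidonate release, 7 were tested, and 3 were called in culture (all higher), 2 in coculture (1 higher, 1 lower), 3 after ligation (1 higher, 2 lower) and 2 after CCl4 (1 higher, 1 lower). The shares of all tested genes called in either direction were 42.1%, 38.7%, 16.9% and 22.0% in that order. The culture, coculture and CCl4 counts were near or below these shares. In culture, where all called genes of the list were higher, 18.5% of all tested genes were called higher. Pla2g4a, the cytosolic phospholipase A2 that feeds cyclooxygenase, was higher in each group. Its arrays stood at 5.63, 5.02, 6.08, 4.83 and 4.93 in quiescent cells, 6.63, 6.86 and 6.83 in culture and 8.59 and 8.54 in coculture. Ligation cells gave 7.47, 7.88 and 6.85, and CCl4 cells 8.10, 7.43 and 7.49. All 11 activated arrays lay above all 5 quiescent arrays. The differences from quiescent were 1.48 in culture (adjusted p 0.00084), 3.27 in coculture (3.92e-06), 2.10 after ligation (0.000126) and 2.38 after CCl4 (4.26e-05). Coculture exceeded culture by 1.79 ± 0.36 (adjusted p 0.00352), and all 5 calls held in each of the 25 alternative fits.

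Mgll, the lipase that frees arachidonic acid from a cannabinoid lipid, fell in coculture by 1.98, after ligation by 1.29 and after CCl4 by 1.84 (adjusted p 0.00127, 0.0171 and 0.00149), and in culture differed by -0.22 (0.642). The ligation call was lost without ligation replicate 2 (-0.73) and with the replicate number as a block. Anxa1, a protein that restrains phospholipase A2, rose in culture by 1.01 ± 0.15 (adjusted p 0.00013), and coculture stood at -1.04 relative to culture (0.00205, or 0.0571 without coculture replicate 2). Pla2g15, a lysosomal phospholipase, rose in culture by 0.69 ± 0.18 (0.00772).

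Of 11 other prostanoid synthases listed, 5 were tested, and 2 were called in culture, beside 42.1% of all tested genes, and 1 in coculture, beside 38.7%. After ligation and after CCl4 limma called 0 of them, beside 16.9% and 22.0% of all tested genes. An unadjusted p under 0.05 was found for 0 and 2 of them, and for 2371 and 2705 of the 7823 tested genes. Ptges2, a second PGE2 synthase, fell in culture by 0.90 (adjusted p 0.0104), a call lost without culture replicate 3. Gstm2, a glutathione transferase, rose in culture by 0.55 (0.0103). Cbr1, a carbonyl reductase that can convert PGE2, rose in coculture by 0.97 (0.00546), a call lost without coculture replicate 3. Akr1b8, an aldo-keto reductase, was higher in coculture than in culture by 1.13 (0.0134), a call lost without culture replicate 3 or coculture replicate 2. Prxl2b, a prostamide and PGF synthase, was called in none of the comparisons with quiescent cells. The 5 other prostanoid receptors on the list, Ptger1, Ptgir, Ptgdr, Ptgdr2 and Tbxa2r, were all below the limit for testing. Ptgir, the prostacyclin receptor, averaged between 1.67 and 2.68, and Tbxa2r, the thromboxane receptor, averaged 2.87 in culture and 1.83 to 1.92 in the other groups.

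**Figure D3:**
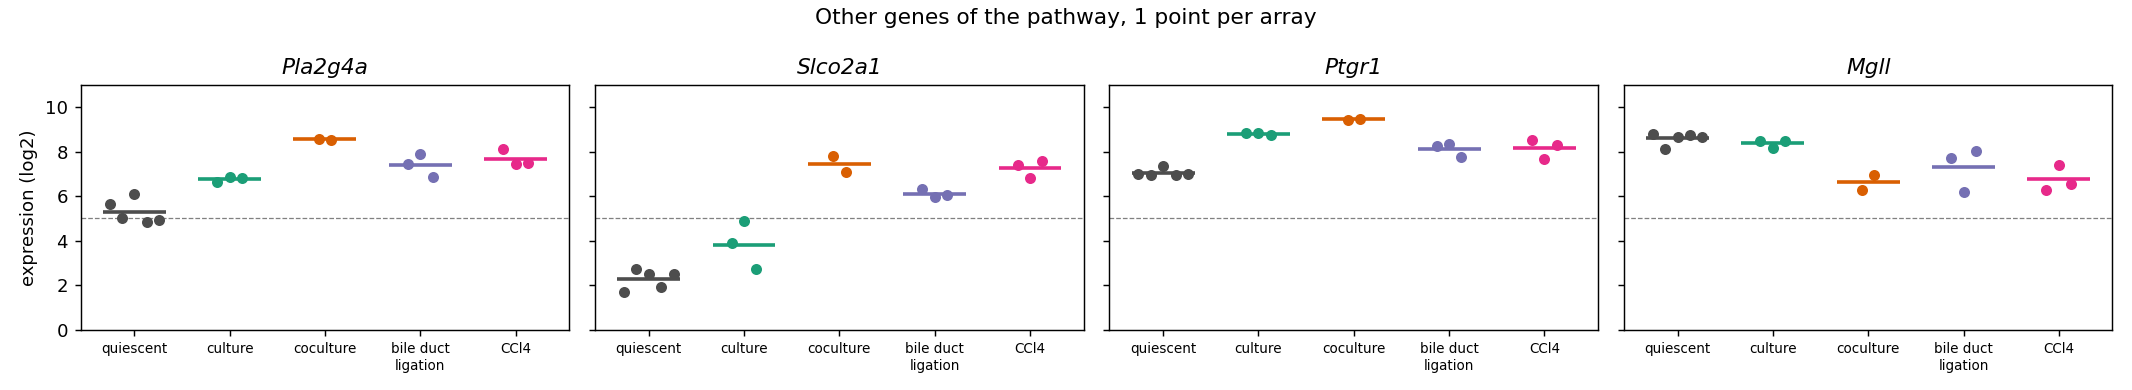
Log2 expression of 4 other genes of the pathway on each of the 16 arrays, with a horizontal bar at each group mean and a dashed line at log2 5. Slco2a1 lies below 3 on all quiescent arrays and between 5.98 and 7.81 on the coculture and injury arrays, and Mgll is lower in those groups than in quiescent and culture cells.

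Slco2a1 encodes the transporter that takes prostaglandins back into the cell, the first step of their removal, and it rose in all 4 groups. Quiescent cells gave 1.69, 2.71, 2.52, 1.90 and 2.50, and culture cells 3.89, 4.89 and 2.71. Coculture cells gave 7.81 and 7.10, ligation cells 6.32, 5.98 and 6.06, and CCl4 cells 7.40, 6.84 and 7.57. The 8 arrays of these groups lay above all culture and quiescent arrays, while culture replicate 3 met the top of the quiescent range. The differences from quiescent were 1.57 ± 0.39 in culture (adjusted p 0.00496), 5.19 ± 0.45 in coculture (1.57e-06), 3.86 ± 0.39 after ligation (9.7e-06) and 5.00 ± 0.39 after CCl4 (5.18e-07). Coculture exceeded culture by 3.62 ± 0.49 (adjusted p 0.000201). These calls held in each of 24 alternative fits, and the culture difference was 1.04 without culture replicate 2. The gene is also expressed by endothelial cells and macrophages. Emcn, an endothelial surface protein, averaged 1.64 in quiescent cells, 1.85 in coculture, 3.27 after ligation and 1.95 after CCl4, and the part of either cell type in the Slco2a1 differences was not tested.

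Ptgr1, a reductase that inactivates prostaglandin and leukotriene metabolites, rose in every group. The differences from quiescent were 1.75 in culture, 2.40 in coculture, 1.06 after ligation and 1.11 after CCl4, with adjusted p of 5.03e-06, 1.57e-06, 0.000891 and 0.000615. Abcc4, which exports prostaglandins, stood 1.14 ± 0.38 above quiescent after CCl4 (adjusted p 0.0445), a call lost in 12 of 24 alternative fits. Of this list 6 of 7 genes were tested, and 3 were called in culture, 2 in coculture, 2 after ligation and 3 after CCl4, all higher. Of all tested genes 42.1%, 38.7%, 16.9% and 22.0% were called in either direction, and the first and second counts were near these shares. The shares called higher were smaller, at 18.5%, 17.8%, 8.03% and 9.51%. Slco2a1 reached 5 only on coculture and injury arrays, so it entered these counts only through groups where it was high.

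In the neighbouring leukotriene branch 2 of 14 listed genes were tested. Mgst3, a glutathione transferase of leukotriene synthesis, rose in culture by 2.09 ± 0.28 (adjusted p 3.77e-05) and in coculture stood 0.80 above quiescent (0.0578). Mgst3 reached 5 only on the culture arrays and coculture replicate 2, so it was tested only through groups where it was high. Lta4h, the leukotriene hydrolase, was called in none of the comparisons with quiescent cells.

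Of 14 genes known to respond to cAMP, 9 were tested, and 3 were called in culture (1 higher, 2 lower), 4 in coculture (2 higher, 2 lower), 3 after ligation (1 higher, 2 lower) and 3 after CCl4 (2 higher, 1 lower). The shares of all tested genes were 42.1%, 38.7%, 16.9% and 22.0%. The list's median differences were 0.05, -1.15, -0.53 and -0.06, and called genes lay on both sides in each comparison. Il6 reached 5 on no quiescent array, so it entered these counts only through groups where it was high. Il6, a cytokine, rose in culture by 3.52, in coculture by 5.65, after ligation by 3.20 and after CCl4 by 4.31 (adjusted p 0.0139, 0.00201, 0.0477 and 0.00876). The ligation call was lost in 16 of 25 alternative fits, the culture call without culture replicate 1 (2.27) or 2, and the CCl4 call without CCl4 replicate 1. Without culture replicate 3 the culture difference was 5.39. Vegfa, an angiogenic factor, rose in coculture by 3.14 (0.000631) and after CCl4 by 1.68 (0.0249), the latter lost without quiescent replicate 1 or 5 or CCl4 replicate 1. Crem, a cAMP-responsive transcription factor, fell after ligation by 1.87 (0.00891), and without ligation replicate 3, the lowest array at 2.27, the difference was -1.09 (adjusted p 0.0338). Pde4d, a phosphodiesterase that breaks down cAMP, fell in culture by 1.03 (0.0155) and in coculture by 1.67 (0.0022), calls that were lost without culture replicate 2 or 3 and without coculture replicate 2 respectively.

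The genes whose levels ran most like each member over the 16 arrays are given as a description, since the arrays of a group share their condition. For Ptgs2 these were Tpd52 (Pearson r 0.924), Kctd5 (0.916) and Slc7a6os (0.914). For Ptger4 they were Loxl1, a collagen crosslinking enzyme (0.953), Cd93 (0.952) and Cav1, the caveolin of cell surface pits (0.950). For Ptgis they were Pdcd2 (0.953), Igfbp4, a binding protein for insulin-like growth factors (0.949), and Gpat4 (0.943), and for Ptger3 Ndrg1 (0.885), Ackr3, a chemokine scavenging receptor (0.877), and Gpx3 (0.822). Among the members themselves, r was 0.685 between Ptgs2 and Ptger4, 0.0684 between Ptgs2 and Ptgis and 0.572 between Ptgis and Ptger4.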

How the data were processed

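RNA from 16 stellate cell preparations was hybridised to 1 array each. The authors deposited log2 expression values per probe set, made with GCRMA per the submitters' processing notes; GCRMA corrects background by probe sequence and normalises arrays by quantiles, and its version is not given in the sources used here. The table held 45101 probe sets, of which 34945 had exactly 1 symbol in the platform annotation; 932 with several were left out. Value columns with no sample numbered 0. With limma 3.58.1 in R 4.3.3, 5 group means were fitted to all arrays (lmFit, and eBayes with a trend), with Benjamini-Hochberg adjustment over the 7823 tested genes in each of 10 contrasts and in an F test of the 4 differences from quiescent. Tests were two-sided and the fit was tested on simulated data. Summed marker levels are sums on the linear scale, given as log2.

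The members and lists were chosen with earlier results of these data known. Other pathway genes were named by F test, up to 4 per list, plus every tested gene of a list with at most 5; genes of the marker lists, Nr4a1, Nr4a2, Nr4a3, Kit, Ptgir and Tbxa2r were named after their values were seen. The 3 genes most like each member called in the F test were named, skipping unnamed clones. Alternatives were other filters, the mean of all probe sets, centred arrays, no trend, array weights, the replicate number as a block, only the groups compared, and each array left out. Promoters were read from RefSeq's table for GRCm38.p6.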

Additional observations from a re-analysis of the deposited data

Results flagged for a closer look

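In 5 of 27 genes examined the quiescent array farthest from the others lay beyond Dixon's 95% limit for 5 samples, a gap of 0.71 of the whole range, which chance passes in about 1 of 20 groups. Ptgs2 stood at 7.67 in quiescent replicate 4, with a gap of 0.814 of the range. In the same array Akr1b8 stood at 8.56 (0.782) and Vegfa at 6.12 (0.734). Ptgr1 stood at 7.36 in quiescent replicate 3 (0.846), and Mgll at 8.14 in quiescent replicate 2 (0.758), the lowest of the group.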

How the results depend on the processing

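Most calls rest on 2 to 5 arrays a group, and values near log2 2 are limited by the background estimate. Against quiescent cells, some calls were kept when any single array was left out. They were those of Ptgis in culture and coculture, of Ptger4 after both injuries and of Ptgs2 after CCl4 (5.24 to 6.76). Counts of called members over those fits ranged from 3 to 4 in the F test, 1 to 4 for culture, 2 to 4 for coculture, 1 to 2 for ligation and 2 to 3 for CCl4, each against quiescent. They ranged from 1 to 2 for coculture against culture, 2 to 3 and 2 to 4 for culture against ligation and CCl4, and 1 to 2 for coculture against CCl4, and stayed at 2 for coculture against ligation and 0 for CCl4 against ligation.

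When each gene's probe sets were averaged Ptger4 was not tested, and the counts were 1 for ligation and 1 for CCl4 against quiescent, 0 for coculture against culture, 1 for culture against ligation, and 1 each for coculture against ligation and CCl4. With no filter, coculture against culture called 2, Ptges being tested there. Array weights gave 2 for coculture against quiescent, where Ptger3 had an adjusted p of 0.0516. They gave 4 for culture against ligation, Ptgs2 and Ptger2 among them. With these weights Ptgs2 was also called in culture against quiescent (2.56, adjusted p 0.0113), and Ptgis in CCl4 against quiescent (0.60, 0.048). Fits of only the groups compared gave 1 for ligation against quiescent, where Ptgs2 had an adjusted p of 0.0608, and 4 for culture against ligation, again with Ptger2. The cause of these last changes was not tested. The Ptger4 difference of coculture from quiescent was not called with no filter (adjusted p 0.0618), a limit of 7 (0.0677) or array weights (0.105). Centred arrays and eBayes without a trend changed no member's call.

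The replicate numbers were not treated as a pairing in the main fit. Over all groups, 6 of 26 pairs with the same number had residual correlations over 0.1 (median 0), and 5 of 14 samples correlated best with their own number. The highest were the pairs of culture with coculture, at 0.31 for number 2 and 0.54 for number 3, and 2 pairs are too few to settle whether those groups were paired. With the replicate number as a block, coculture against culture called 2, Ptgs2 being called at 3.77 (adjusted p 0.000563). Ptgs2 was then also called in culture against quiescent (2.41) and against ligation (-2.69), and Ptger4 was not in culture against quiescent (-0.88, 0.146). All-gene calls in culture against quiescent numbered 2654 with the block and 3291 without. Numbers 4 and 5 occurred only in quiescent cells, so the block removed those arrays, with Ptgs2 at 7.67 in replicate 4, from every difference. What the block changed and what this loss of arrays changed cannot be told apart.

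Differences that changed sign were uncalled in the main fit. Leaving out single arrays gave Ptgis -0.14 to 0.07 for ligation minus quiescent and -0.29 to 0.40 for coculture minus culture, where Ptger2 gave -0.33 to 0.13 and Ptger3 -1.49 to 1.05. For CCl4 minus ligation Ptger2 gave -0.34 to 0.15 and Ptger4 -0.58 to 0.19. Ptgs2 gave -0.73 to 2.18 for coculture minus ligation and -2.33 to 0.58 for coculture minus CCl4, where Ptger3 gave -0.53 to 2.00. Array weights gave Ptgis 0 for coculture minus culture. With quiescent replicate 4, culture replicate 3 and CCl4 replicate 3 left out together, a choice made after seeing the data, coculture minus culture was -0.02 for Ptgis, 0.10 for Ptger2 and 0.38 for Ptger3, and CCl4 minus ligation was 0.15 for Ptger2. The Ptges fits without each array were likewise chosen after seeing the data.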
